A study of Mus musculus with 2 samples.

Results

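The 10 genes examined here define or control resident Kupffer cells, the macrophages that line the liver sinusoids. They are Clec4f, Vsig4, Timd4, Cd5l, Marco, Folr2, Cd163 and Adgre1, which encode surface or secreted proteins, and Nr1h3 and Spic, which encode transcription factors. They were chosen by name as known genes of this cell type, with earlier results of these data known, and all 10 had an entry among 36461 gene symbols. RNA-seq compared primary hepatic stromal cells of adult male C57/Bl6 mice with 2 genotypes, both injured by CCl4, a hepatotoxin, for 5 weeks. In the paper's protocol, tamoxifen was injected every week from week 2 of the injury. Control mice were Foxf1 fl/fl littermates without the Cre. The others were labelled αSMACreER;Foxf1 fl/fl and are written αSMACreER;Foxf1-/- after deletion, in which a tamoxifen-inducible Cre driven by the smooth muscle actin promoter removes Foxf1 from myofibroblasts. Activity of the Cre in macrophages was not tested, and Foxf1 itself was not analysed here. Liver cells were left to adhere to plastic for 2 hours, the attached cells were collected without a sort, and RNA was pooled within a genotype. Each genotype was sequenced as a single library, so the spread between replicates is unknown, and all comparisons are given without p-values.

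Kupffer cells arise in the embryo and renew themselves in the liver, where they clear blood-borne particles, bacteria and aged red cells. Their identity is held by signals from neighbouring cells. Sinusoidal endothelial cells present the Notch ligand DLL4, stellate cells supply CSF1 and IL34, and TGF-β family ligands act alongside. Within the macrophage these signals act with PU.1, with LXRα, a sterol-sensing nuclear receptor encoded by Nr1h3, and with ID3. In injured liver, monocytes enter and can become macrophages that first lack and later acquire Kupffer cell genes.

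To show regulatory sequence of the genes with the largest differences (Clec4f and Cd163) and of abundant receptors and secreted products (Cd5l, Marco and Vsig4), their upstream promoter stretches were read from RefSeq on GRCm38.p6. Each runs 5′ to 3′ along its gene and ends before the annotated start in both RefSeq and GENCODE. Capitals mark 3 sets of letters on either strand. These are GAGGAA, the core bound by PU.1, TGGGAA, the core bound by the Notch effector RBPJ, and TGCTGA, a half-site of MAF proteins.
Clec4f, chr6:83656188-83656366, minus strand: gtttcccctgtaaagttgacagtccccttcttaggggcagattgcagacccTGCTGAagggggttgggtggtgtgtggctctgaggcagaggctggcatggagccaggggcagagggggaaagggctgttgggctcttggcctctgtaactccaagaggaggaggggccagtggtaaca
Cd163, chr6:124304401-124304650, plus strand: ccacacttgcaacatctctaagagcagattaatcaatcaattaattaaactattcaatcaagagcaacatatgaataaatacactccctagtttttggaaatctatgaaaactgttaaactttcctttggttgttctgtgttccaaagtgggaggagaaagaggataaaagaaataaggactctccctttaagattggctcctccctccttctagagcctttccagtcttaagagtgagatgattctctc
Cd5l, chr3:87357631-87357880, plus strand: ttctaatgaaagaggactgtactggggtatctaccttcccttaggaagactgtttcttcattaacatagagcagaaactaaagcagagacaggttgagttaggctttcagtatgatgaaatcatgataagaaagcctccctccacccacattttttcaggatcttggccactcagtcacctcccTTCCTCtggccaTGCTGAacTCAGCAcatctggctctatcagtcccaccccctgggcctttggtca
Marco, chr1:120505025-120505274, minus strand: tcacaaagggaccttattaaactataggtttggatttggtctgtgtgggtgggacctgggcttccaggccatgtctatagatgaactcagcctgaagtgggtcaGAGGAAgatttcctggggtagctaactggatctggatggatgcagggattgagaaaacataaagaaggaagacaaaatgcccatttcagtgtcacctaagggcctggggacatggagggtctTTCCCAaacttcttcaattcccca
Vsig4, chrX:96293439-96293688, minus strand: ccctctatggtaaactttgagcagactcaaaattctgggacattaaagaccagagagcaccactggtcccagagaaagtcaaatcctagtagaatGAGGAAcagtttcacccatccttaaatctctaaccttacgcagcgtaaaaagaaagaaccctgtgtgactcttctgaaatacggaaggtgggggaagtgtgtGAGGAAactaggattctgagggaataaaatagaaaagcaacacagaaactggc

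Across whole promoter windows, from 250 bases before to 50 after a RefSeq start, 9 of the 10 genes had at least 1 window. Folr2 and Nr1h3 had 2 starts each, which made 11 windows, and Adgre1 is named only. MAF half-site letters were present in 7 of the 11 windows, against 19.5% of all 32851 mouse windows of that length. They covered 6 genes, namely Clec4f, Vsig4, Timd4, Cd5l, Folr2 and Spic. Cd5l held a pair of these half-sites facing each other, 2 bases apart. PU.1 letters were in 4 windows (28.3% of all windows), in Vsig4, Cd5l, Marco and Nr1h3. RBPJ letters were in 4 windows (25.6% of all windows), in Clec4f, Marco and Nr1h3, where the overlapping Nr1h3 windows share their matches. The Cd163 window, the gene with the largest difference between the libraries, held none of the 3 sets. The RBPJ letters of Clec4f lie closer to the RefSeq start than the stretch printed. The MAF letters of Vsig4 lie after its RefSeq start, at bases 24 to 29, and so outside the stretch printed. The LXR element with AGGTCA half-sites 4 bases apart was in 0 of the 11 windows and in 0.0152% of all windows. Matches of letters describe the sequence and show no binding.

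**Figure D1:**
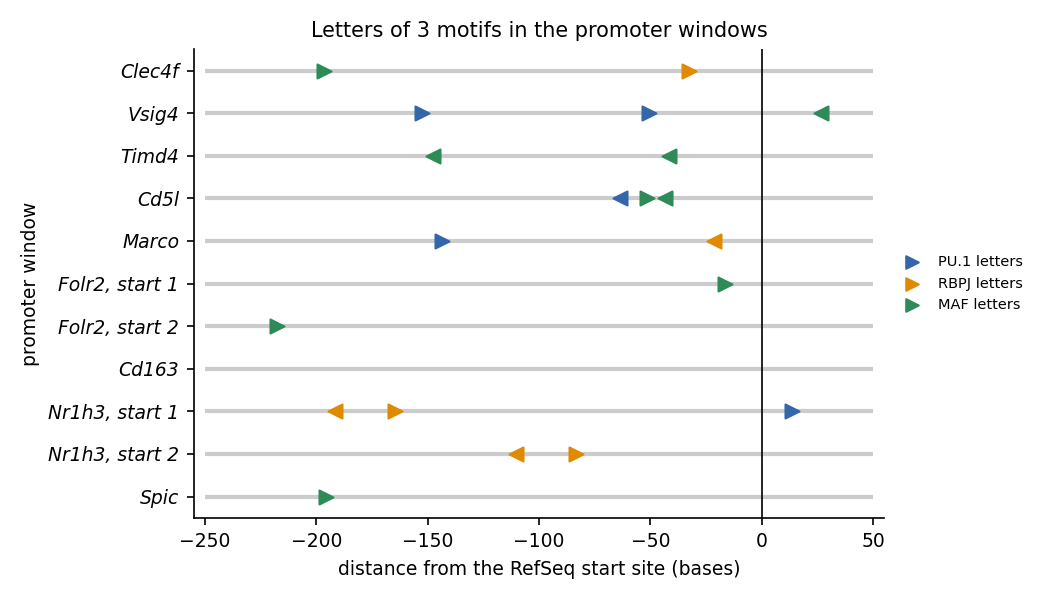
Position of PU.1, RBPJ and MAF letters in the 11 promoter windows, as the distance in bases from the RefSeq start site (vertical line). Triangles point right for a match on the gene's own strand and left for the other strand, and start 1 is the start with the lower coordinate. Cd163 has no match, and Cd5l has a pair of MAF half-sites facing each other.

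All 10 genes were detected in both libraries, at levels from 18.1 to 1391 FPKM (FPKM, fragments scaled to transcript length and to library size, as the authors deposited them). Cd5l was highest, with 1391 FPKM in Foxf1 fl/fl and 1122 FPKM in αSMACreER;Foxf1-/- cells, and ranked 71st and 65th of all symbols. Marco (1168 and 929 FPKM) and Clec4f (1117 and 753 FPKM) came next. A middle group of receptors and factors lay near 100 to 300 FPKM in Foxf1 fl/fl cells, with Vsig4 at 268, Folr2 at 232, Adgre1 at 162 and Spic at 123 FPKM. Nr1h3, Timd4 and Cd163 were lowest, at 90.2, 54.9 and 30.003 FPKM in Foxf1 fl/fl cells. The order of the 10 levels was the same in both libraries. The least covered member still had about 1058 estimated reads in Foxf1 fl/fl (Timd4) and 868 in αSMACreER;Foxf1-/- (Cd163), so counting error was a small part of each level. Without replicates it cannot be said which neighbours in this order differ, and Vsig4 and Folr2 were among the closest.

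**Figure D2:**
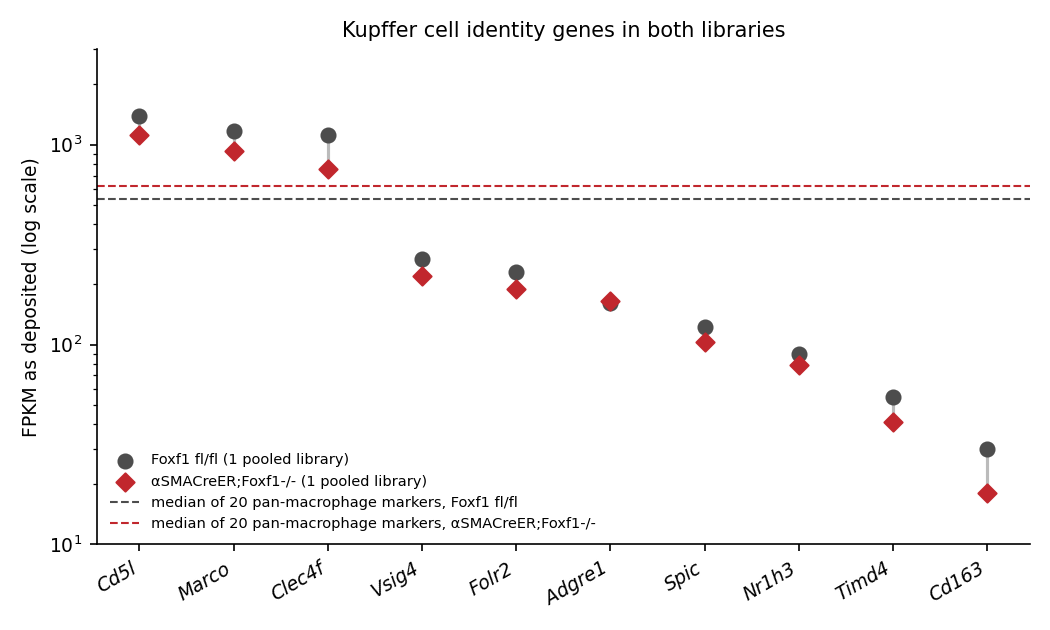
FPKM of the 10 genes on a log scale, in order of their level in Foxf1 fl/fl cells, with 1 pooled library per genotype and no error bars. Dashed lines give the median of 20 pan-macrophage markers in each library (536 and 618 FPKM). Cd5l, Marco and Clec4f lie above both lines, and the gap between the libraries is widest for Cd163 and Clec4f.

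The cells are labelled stromal, and the marker lists were read from both libraries to place the Kupffer cell genes. The members' median level was 197 FPKM in Foxf1 fl/fl and 177 FPKM in αSMACreER;Foxf1-/- cells, against 1.36 and 2.36 FPKM for 10 stellate cell and myofibroblast markers. Des, the stellate cell filament gene desmin, was at 1.70 and 3.29 FPKM, and Lrat, which stores vitamin A, was at 0.0778 and 0.111 FPKM. The matrix genes Col1a1 (70.2 and 103 FPKM) and Dcn (127 and 186 FPKM) were the most abundant of the list. Markers of macrophages of other organs were low, with a median of 3.99 and 4.16 FPKM over 6 genes, which included Sall1 of microglia (0.295 and 0.279 FPKM) and Gata6 of peritoneal macrophages (8.12 and 10.4 FPKM). The Kupffer-restricted lectin Clec4f thus had higher FPKM than every marker on both of these lists in either library. Other lists came nearer to the members. Median levels were 125 and 40.4 FPKM for hepatocyte markers and 95.8 and 105 FPKM for sinusoidal endothelial markers. Monocyte-derived and scar-associated macrophage markers had 165 and 185 FPKM. Alb (2292 and 912 FPKM) was above Clec4f in both libraries, and S100a9 (1258 FPKM) was above it in Foxf1 fl/fl cells.

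Compared with Foxf1 fl/fl, 9 of the 10 genes had lower values in αSMACreER;Foxf1-/- cells and Adgre1 was level. Fold changes are log2(FPKM + 0.1) of αSMACreER;Foxf1-/- minus Foxf1 fl/fl, after the former was divided by 1.02, the median ratio between the libraries. The members ranged from −0.76 to −0.00005, with a median of −0.33, beside a median of 0.0050 over all 12692 genes with a mean of at least 1 FPKM, of which 49.6% were below 0. At least 1.5-fold lower were 2 of the 10, Cd163 and Clec4f, where 13.2% of all genes tested were. At least 1.5-fold higher were 0 of the 10, against 12.8% of all genes. These counts are close to the background, and the smaller differences share a direction. In pooled bulk RNA, fewer Kupffer cells and less of these RNAs per cell cannot be told apart.
Differences also varied with transcript length. The members' longest transcripts have 1204 to 4443 bases, with a median of 2104.5 against 3066.5 for all genes. The 7707 genes in that range had a median log2 fold change of −0.069. Of these genes, 12.6% were at least 1.5-fold lower and 7.12% at least 1.5-fold higher. With the median of each of 20 length groups subtracted, the members' median was −0.13, and Folr2 changed sign. The part of transcript length in the members' differences was not tested.

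**Figure D3:**
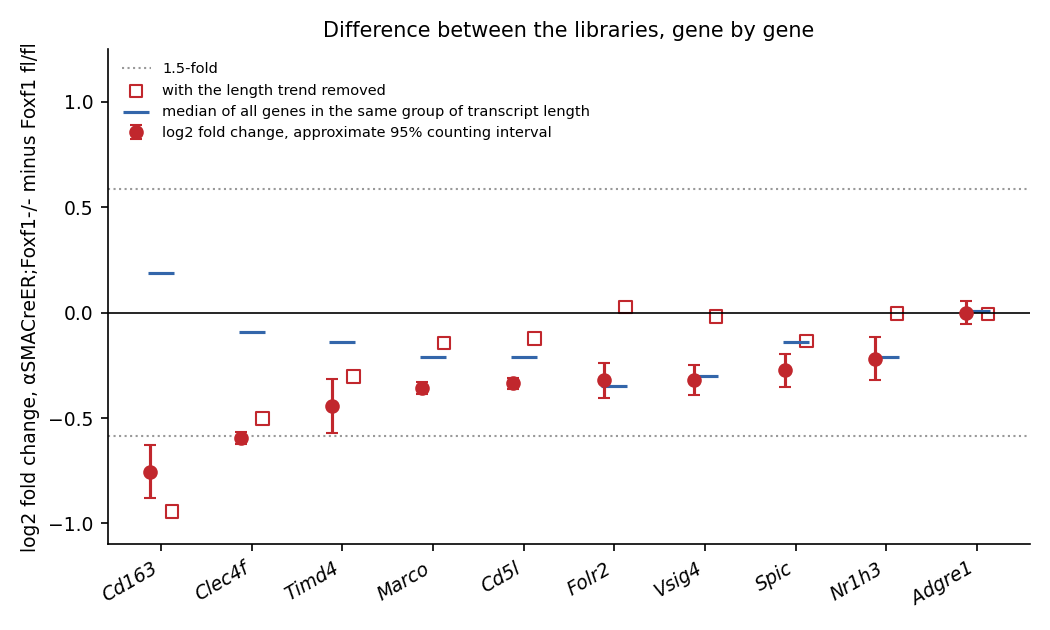
Log2 fold change of each gene with an approximate 95% counting interval (filled circles), the same with the length trend removed (open squares) and the median of all genes in its group of transcript length (blue bars). Dotted lines mark 1.5-fold. Cd163 and Clec4f lie farthest below 0 and below their length groups, while Vsig4, Folr2 and Nr1h3 lie at their length groups.

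Of the receptors most restricted to Kupffer cells, Clec4f had the largest difference and Vsig4 the smallest. Clec4f (ENSMUSG00000014542, chromosome 6, 83644542 to 83656187 of GRCm38, minus strand) encodes a C-type lectin that binds galactose-type glycans. It had 1117 FPKM in Foxf1 fl/fl and 753 FPKM in αSMACreER;Foxf1-/- cells, a 1.51-fold difference (log2 fold change −0.60, counting interval −0.62 to −0.57). That interval spans the 1.5-fold threshold, so the call of Clec4f rests on a narrow margin. Its group of transcript length had a median of −0.093, and −0.50 remained after this was subtracted. Timd4 (ENSMUSG00000055546, chromosome 11, 46810800 to 46844332, plus strand) encodes TIM-4, a phosphatidylserine receptor for apoptotic cells that marks long-lived resident macrophages. It had 54.9 and 41.1 FPKM, a log2 fold change of −0.44 (−0.57 to −0.32). This was the third largest difference, short of 1.5-fold. Vsig4 (ENSMUSG00000044206, chromosome X, 96247203 to 96293438, minus strand) encodes the complement receptor CRIg, which captures C3-coated bacteria. It had 268 and 219 FPKM, a log2 fold change of −0.32 (−0.39 to −0.25), and its length group had −0.30.

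Among the scavenger receptors and secreted or folate-binding proteins, Cd163 stood apart from Marco, Cd5l and Folr2. Cd163 (ENSMUSG00000008845, chromosome 6, 124304656 to 124330527, plus strand) encodes the receptor for haemoglobin-haptoglobin complexes. It had 30.003 and 18.1 FPKM, a 1.69-fold difference (log2 fold change −0.76, counting interval −0.88 to −0.63), and was the member lowest in level and largest in difference. With the length trend removed it was −0.94, since transcripts of its length were on the whole higher in αSMACreER;Foxf1-/- cells. Marco (ENSMUSG00000026390, chromosome 1, 120474538 to 120505024, minus strand), a collagen-like scavenger receptor for bacteria, had 1168 and 929 FPKM. Its log2 fold change was −0.36 (−0.39 to −0.33), or −0.14 with the length trend removed. Cd5l (ENSMUSG00000015854, chromosome 3, 87357881 to 87371073, plus strand), a secreted scavenger-type protein also called AIM that is a known LXR target, had 1391 and 1122 FPKM. Cd5l and Marco gave similar fold changes, with −0.34 (−0.36 to −0.31) for Cd5l and overlapping counting intervals. Folr2 (ENSMUSG00000032725, chromosome 7, 101839988 to 101857194, minus strand), folate receptor β of resident macrophages, had 232 and 189 FPKM and a log2 fold change of −0.32 (−0.41 to −0.24). Its length group had −0.35, so 0.027 was left. The antisense gene Gm10602 overlaps Folr2 and had 3.80 and 4.76 FPKM, and reads of the pair cannot be told apart without strand.

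Adgre1 (ENSMUSG00000004730, chromosome 17, 57358691 to 57483527, plus strand) encodes F4/80, an adhesion receptor of mouse macrophages in general. It had 162 and 165 FPKM as deposited, a log2 fold change of −0.00005 after scaling (counting interval −0.055 to 0.055). Because a ratio within a library does not depend on scaling, the other members were also read against it. Clec4f was 6.90 times Adgre1 in Foxf1 fl/fl and 4.57 times in αSMACreER;Foxf1-/- cells. Cd163 was 0.185 and 0.109 times Adgre1, and Timd4 was 0.339 and 0.249 times. Adgre1 had the highest fold change of the 10, so these ratios restate the differences above. With the length trend removed, Folr2 (0.027) and Nr1h3 (−0.0051) lay just above Adgre1 (−0.0058).

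Before removal of the length trend, the transcription factors had smaller differences than most of the surface genes. The counting interval of Spic still overlapped that of Vsig4 (−0.39 to −0.25). Nr1h3 (ENSMUSG00000002108, chromosome 2, 91184061 to 91202834, minus strand) had 90.2 and 78.9 FPKM, a log2 fold change of −0.22 (−0.32 to −0.12), which its length group matched (−0.21). Spic (ENSMUSG00000004359, chromosome 10, 88674772 to 88685015, minus strand), an ETS factor related to PU.1 that directs iron-recycling macrophages and is induced by heme, had 123 and 103 FPKM. Its log2 fold change was −0.27 (−0.35 to −0.19), or −0.14 with the length trend removed. With that trend removed, Cd5l (−0.12) and Vsig4 (−0.018) had smaller differences than Spic.

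The differences depended on how the libraries were scaled. Scaling to an equal FPKM sum raised every gene by 0.19 on the log2 scale, an equal sum over transcripts of at least 300 bases by 0.17, and scaling by the pan-macrophage markers by 0.12. Under each of these the 9 lower members stayed below 0, at −0.56 for Cd163, −0.40 for Clec4f and −0.026 for Nr1h3 with an equal FPKM sum. Adgre1 was then above 0, at 0.19. Clec4f was past 1.5-fold with median-ratio scaling alone among these scalings, and Cd163 fell short of it with an equal FPKM sum.

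**Figure D4:**
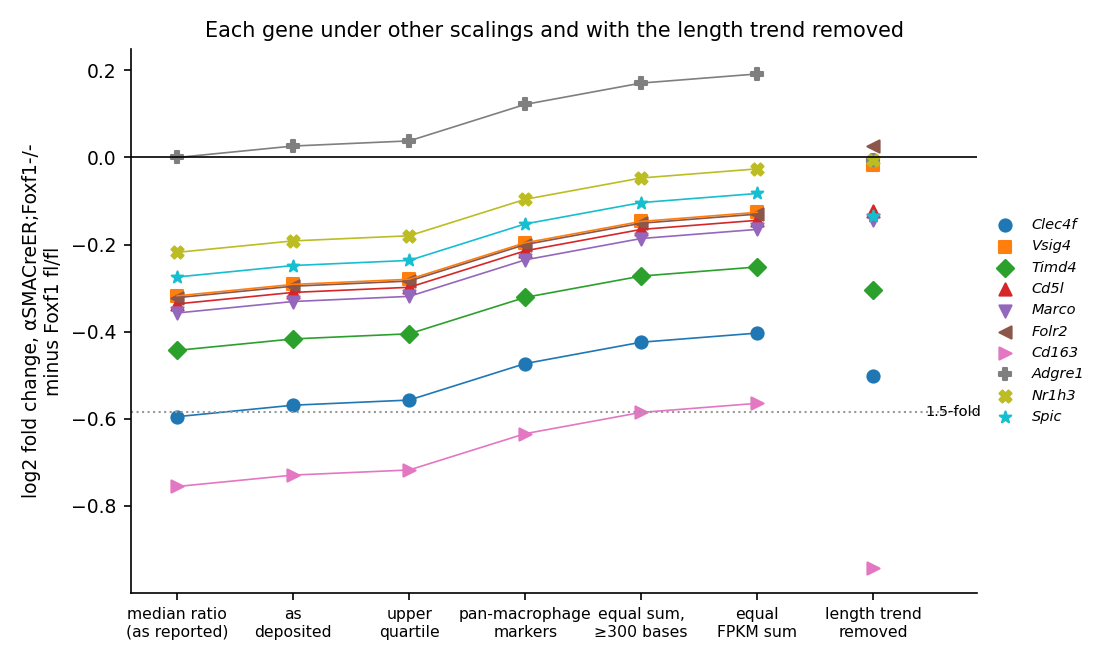
Log2 fold change of each gene under 6 scalings of the libraries, joined by lines, and with the length trend removed. The dotted line marks 1.5-fold lower. Scaling moves all genes together without changing their order, whereas removal of the length trend spreads Cd163 (−0.94) from Folr2 (0.027).

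Other genes of the same cell type were then described. Of 16 further Kupffer cell genes, 15 passed 1 FPKM, with a median log2 fold change of −0.33, and 12 were below 0. At least 1.5-fold lower were 2 of the 15, Fcna and Paqr9, close to the 13.2% of all genes. None of the 15 was at least 1.5-fold higher, against 12.8% of all genes. Fcna, which encodes ficolin A of the lectin complement pathway, had 561 and 307 FPKM (−0.89, counting interval −0.95 to −0.84). Paqr9 had 24.8 and 14.1 FPKM (−0.83). Both stayed past 1.5-fold with the length trend removed, at −0.59 and −1.32. The part of other cell types in these differences was not tested. Cfp, the complement stabiliser properdin, had 539 and 367 FPKM (−0.58), just short of 1.5-fold, and Clec1b, a lectin also found on platelets, had 116 and 88.6 FPKM (−0.42). Axl, a receptor for dying cells, was higher, with 168 and 216 FPKM (0.34).

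Regulators of Kupffer cell identity gave a mixed picture. The 14 regulators with an entry had a median log2 fold change of −0.10, which changed sign with 3 scalings, and 2 were at least 1.5-fold lower and 1 higher. Spi1, which encodes PU.1, had 329 and 315 FPKM (−0.090). Id3, the inhibitor of DNA binding that Kupffer cells require, had 190 and 116 FPKM, a log2 fold change of −0.74 (−0.84 to −0.64), or −0.39 with the length trend removed. Cebpb, a factor of inflammatory and myeloid genes, had 678 and 401 FPKM (−0.79), and fell short of 1.5-fold with the length trend removed (−0.49), as did Id3. Zeb2, a macrophage identity factor with a long transcript of 9124 bases, was higher, with 51.9 and 93.3 FPKM (0.82), or 0.33 and short of 1.5-fold with the length trend removed.

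Niche ligands were measured alongside their receptors. Of 10 ligand genes, 7 passed 1 FPKM and none of them passed 1.5-fold, with a median log2 fold change of 0.13. Csf1, the macrophage growth factor, had 94.9 and 109 FPKM (0.17), and the Notch ligand Dll4 had 9.70 and 9.56 FPKM (−0.047). Il34, the other ligand of the CSF1 receptor, had 0.342 and 1.105 FPKM, and the first value rests on about 5.3 reads. Of the 8 receptor genes, 7 were above 0, with a median of 0.42 that was 0.050 with the length trend removed. Csf1r had 324 and 308 FPKM (−0.10). Notch1 had 22.3 and 33.0 FPKM (0.54) and Notch2 had 12.6 and 18.9 FPKM (0.56), with transcripts of 9488 and 10500 bases whose length group had 0.49. Tgfbr1 (12 and 21.2 FPKM, 0.79) and Bmpr2 (4.66 and 9.36 FPKM, 0.97) were at least 1.5-fold higher, but not with the length trend removed (0.46 and 0.48). These genes are not restricted to macrophages, and endothelial and stromal cells also express several of them.

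LXR target genes and heme and iron recycling genes were read as well. Of 13 LXR targets, Apoe was left out of the counts because the estimate of 1 library had another status than OK, and 9 of the other 12 were above 0 with a median of 0.13, or 0.028 with the length trend removed. The sterol exporters Abca1 (24.5 and 34.8 FPKM, 0.48) and Abcg1 (29.3 and 36.1 FPKM, 0.27) were above 0 and short of 1.5-fold, and with the length trend removed they were at −0.015 and −0.061. Mylip, which promotes breakdown of the LDL receptor, had 23.7 and 25.0 FPKM (0.049). Srebf1, the driver of lipid synthesis, was at least 1.5-fold higher (24.6 and 42.1 FPKM, 0.74, or 0.56 and short of it with the length trend removed), whereas Fasn, which hepatocytes also express, was at least 1.5-fold lower (20.4 and 10.9 FPKM, −0.93). Among 11 heme and iron genes, 0 passed 1.5-fold and the median was −0.17, which an equal FPKM sum turned to 0.019. Hmox1, heme oxygenase 1, had 933 and 650 FPKM (−0.55), the iron exporter Slc40a1 had 31.5 and 28.5 FPKM (−0.17), and the biliverdin reductase gene Blvrb had 163 and 118 FPKM (−0.49). Hmox1 and Slc40a1 are on this list and among the 16 further Kupffer cell genes.

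To set the members against macrophages in general, 20 pan-macrophage markers were used. Their median log2 fold change was −0.12, which turned to 0.070 and 0.049 with the equal FPKM sums and to 0.041 with the length trend removed, with 1 gene at least 1.5-fold lower (Aif1, −0.59) and 1 higher (Itgam, 0.66). Neither passed 1.5-fold with the length trend removed, at −0.18 for Aif1 and 0.46 for Itgam. The endosomal marker Cd68 had 646 and 679 FPKM (0.045), and lysozyme (Lyz2) had 3682 and 3395 FPKM (−0.14). The members' median was 0.21 log2 units below that of this list, or 0.17 below with the length trend removed, and scaling cannot move this gap. The list was mixed, since Aif1 (−0.59), C1qc (−0.50), Cd14 (−0.50), C1qa (−0.46), Fcer1g (−0.44), Tyrobp (−0.41) and C1qb (−0.35) were below the members' median. With the length trend removed C1qc, Cd14, C1qa and Fcer1g were at −0.15, −0.25, −0.12 and −0.028. Tyrobp was then at −0.0018 and C1qb at 0.0019. Among the 20 markers, 7 were above 0. Summed FPKM of the 10 members equalled 26.9% of the summed pan-macrophage markers in Foxf1 fl/fl and 24.3% in αSMACreER;Foxf1-/- cells. Several of these markers, such as Ptprc, Itgam, Tyrobp and Fcer1g, are also expressed by other leukocytes.
Markers of monocyte-derived and scar-associated macrophages had a median of 0.10 over 18 genes, and 12 of them were above 0. Ly6c2 of inflammatory monocytes had 166 and 234 FPKM (0.47), the chemokine receptor Ccr2 had 6.06 and 9.09 FPKM (0.55), and Cx3cr1 had 2.30 and 3.82 FPKM (0.68). Cx3cr1 alone of these passed 1.5-fold, and it was 0.50 with the length trend removed. The calcium-binding gene S100a4 was at least 1.5-fold lower (637 and 392 FPKM, −0.73), but not with the length trend removed (−0.36). The members' median was 0.43 log2 units below that of this list, and 0.24 below with the length trend removed. The list was mixed, since Plac8 (−0.45), Lgals3 (−0.25), Ear2 (−0.24) and F13a1 (−0.22) were also below 0. These values compare a pair of libraries, not the genotypes.

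**Figure D5:**
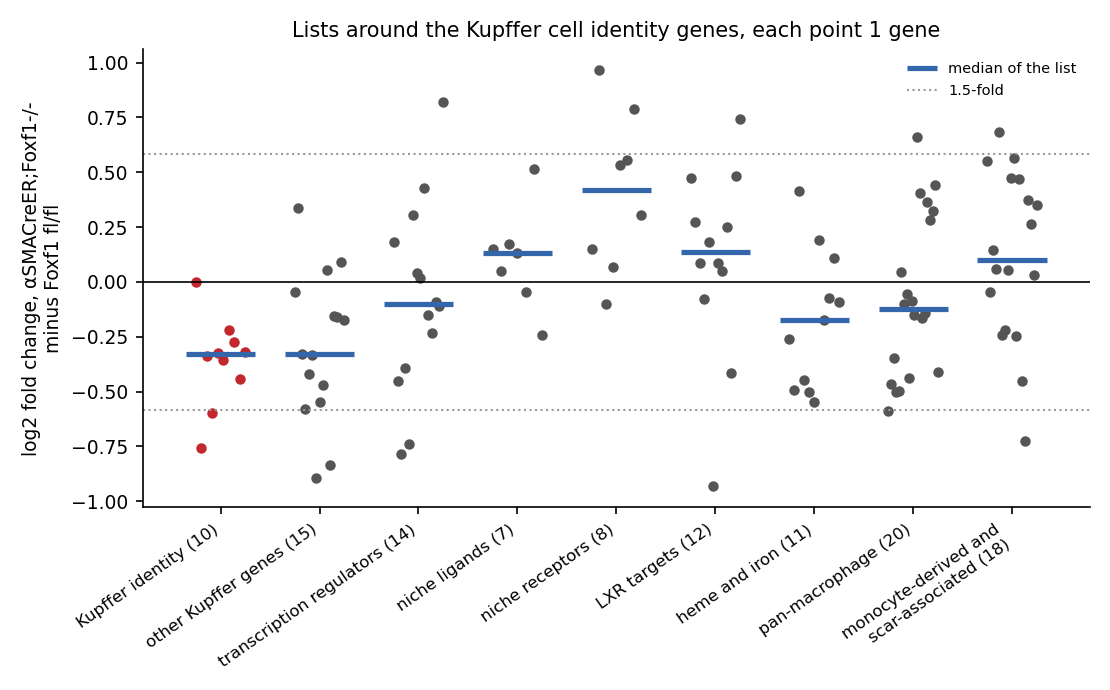
Log2 fold change of each gene with a mean of at least 1 FPKM, by list, with the number of genes in brackets. Blue bars are list medians and dotted lines mark 1.5-fold. Kupffer identity genes and further Kupffer cell genes have medians of −0.33, pan-macrophage markers −0.12 (above 0 with the equal FPKM sums and with the length trend removed) and monocyte-derived and scar-associated markers 0.10.

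Markers of other cells also differed between the libraries, in both directions. All 10 hepatocyte markers were at least 1.5-fold lower, with a median of −1.60, and their summed level was 3498 and 1314 FPKM, none at 0. Alb had 2292 and 912 FPKM. Of 6 neutrophil markers 5 were at least 1.5-fold lower, with summed levels of 2033 and 858 FPKM, and Ly6g had 9.82 FPKM in Foxf1 fl/fl and was listed at 0 in αSMACreER;Foxf1-/- cells. Their median was −1.33, or −0.97 with the length trend removed, where Retnlg (−0.579) fell short of 1.5-fold. Csf3r was above 0, with 48.4 and 53.6 FPKM (0.12). Stellate cell and myofibroblast markers had a median of 0.47 over the 6 of 10 that passed 1 FPKM, or 0.18 with the length trend removed, and summed levels of 214 and 305 FPKM, none at 0. Of these 6, Des passed 1.5-fold (0.89), while the contractile genes Acta2 (7.77 and 5.65 FPKM, −0.48) and Tagln (5.51 and 4.31 FPKM, −0.37) were below 0. The 8 sinusoidal endothelial markers had a median of 0.21, or 0.020 with the length trend removed, summed levels of 935 and 993 FPKM and none at 0. The part of these cells in the members' differences was not tested.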

How the data were processed

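RNA-seq of adherent liver cells was analysed, with 1 library of pooled RNA per genotype, from single-end 75-base reads. The authors aligned reads with TopHat (build mm10 per the labels) and deposited Cufflinks FPKM per Ensembl gene, without counts. Their DESeq comparison used a separate quantification and was not repeated. Of 38320 entries, 36490 had a symbol in GENCODE M21 (GRCm38). For a symbol with several entries, that of greatest mean FPKM stood for it, and 3 entries with a status other than OK were left out of summaries.

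Libraries were scaled by a median ratio over genes with at least 1 FPKM in both libraries, and 0.1 was added before log2. The 1.5-fold threshold follows the paper's methods. The step between low FPKM values, with fragments of 200 bases assumed, gave a depth of about 9761420 and 11329817 mapped reads. Of low values, 49.2% and 52.2% lay within 0.1 of a whole read, so this is rough. The 95% counting intervals rest on it and on the longest transcript, and cover counting error only. FPKM values are no counts, so no count test was run. The procedure was tested on simulated data.

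Members and lists were chosen with earlier results of these data known. Named genes were the members, the first 3 of each other list and up to 3 more past 1.5-fold. Others (Axl, Lrat, Col1a1, Dcn, Tagln, Plac8, Lgals3, Ear2, F13a1, Apoe, Ptprc, Tyrobp, Fcer1g, C1qa, C1qb, C1qc, Cd14, Csf3r, Ppbp and the gene overlapping Folr2) were named after their values were seen. Promoter windows came from RefSeq (GRCm38.p6). Foxf1 and Irf8 are not reported here. Calculations used Python 3.11.15, numpy 2.4.6, pandas 2.3.3 and matplotlib 3.10.9.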

Additional observations from a re-analysis of the deposited data

How the results depend on the processing

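No paired analysis was possible because there was a single library of each genotype. The members' median of −0.33 stayed below 0 under all 13 alternatives run, but several of these could not change it. Other filters, the 2-fold threshold, the sum over entries of a symbol and the counting interval left it the same. Other pseudocounts hardly moved it. It came to −0.14 when FPKM sums were made equal and −0.16 with that sum over transcripts of at least 300 bases. It was −0.21 with scaling by pan-macrophage markers and −0.13 with the length trend removed. Instead of 2, the number of members at least 1.5-fold lower was 1 with the values as deposited, upper-quartile scaling, the sum over transcripts of at least 300 bases, pan-macrophage scaling or the length trend removed, and 0 with an equal FPKM sum or at 2-fold. Over all genes, 1677 were lower and 1624 higher, against 3224 and 3832 with no filter, 942 and 685 at a mean of at least 5 FPKM, and 788 and 553 at 2-fold. An equal FPKM sum gave 2685 higher, and that over transcripts of at least 300 bases 2539. The gap to monocyte-derived macrophage markers, −0.43, a comparison added after the data were seen, was −0.24 with the length trend removed. Adgre1 was above 0 under 5 alternatives and Folr2 under 1. Each alternative acts by its own construction, and beyond that the cause was not tested. Non-overlap of Cufflinks intervals was not run. Depth limits Lrat, Il34, Gp9 and Ly6g, each under 10 estimated reads in at least 1 library, and no replicate spread is known for any gene. Ly6g had about 71.1 estimated reads in Foxf1 fl/fl and 0 in αSMACreER;Foxf1-/- cells.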

Other observations

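Other immune cells of the plated fraction were read from lists of the same kind. The 6 dendritic cell markers summed to 37.0 FPKM in Foxf1 fl/fl and 43.8 FPKM in αSMACreER;Foxf1-/- cells. Clec9a, a receptor of cross-presenting dendritic cells, had 3.67 and 6.70 FPKM (log2 fold change 0.82), Xcr1 had 2.02 and 2.22 FPKM and Flt3 had 4.31 and 4.09 FPKM. The 6 T and NK cell markers summed to 47.1 and 64.8 FPKM. Their largest difference was in Cd4, with 6.34 and 14.1 FPKM (1.11), while Cd3e had 8.02 and 9.88 FPKM and Cd3d had 7.90 and 8.96 FPKM. Of the 5 B and plasma cell markers, Jchain had 78.8 and 26.0 FPKM (−1.62), whereas Ms4a1 had 2.76 and 3.99 FPKM and Cd79a had 24.6 and 24.0 FPKM.

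Platelet markers were read because Clec1b is also a platelet gene. Of 4 markers, Pf4 had 64.5 and 51.4 FPKM, Itga2b had 8.25 and 7.67 FPKM and Gp9 had 1.37 and 0.605 FPKM. Ppbp went the other way, with 1.54 and 2.24 FPKM, on about 13.3 and 22.5 estimated reads. Among bile duct genes, Krt19 had 39.7 and 29.5 FPKM, Krt7 had 4.91 and 6.91 FPKM and Epcam had 8.38 and 5.65 FPKM. Of macrophage genes of other organs, P2ry12 of microglia had 2.82 and 3.90 FPKM, and Siglecf of alveolar macrophages had 3.18 and 1.77 FPKM.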
